A study of Mus musculus with 26 samples.

Results

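Chromatin accessibility around 7 genes of interleukin-6 (IL-6) signalling was measured by ATAC-seq in Kupffer cells, macrophages that reside in the mouse liver. ATAC-seq uses a transposase to place sequencing adapters in open DNA, so that the number of tags at a site measures how accessible it is. The genes were the cytokines Il6, Lif and Osm, the receptor subunits Il6ra and Il6st, the transcription factor Stat3 and the inhibitor Socs3. A member was every peak that the deposited tables assign to one of these genes by its nearest transcription start. This rule gave 95 of the 96238 nuclear peaks of the inbred strains and 201 of the 217196 nuclear peaks of the hybrid, and 75 of the 95 had a counterpart in the hybrid. A peak is named below by its gene and its distance in bp from that start, with upstream distances negative. By gene, the inbred strains had 14 peaks at Il6, 12 at Lif, 5 at Osm, 11 at Il6ra, 23 at Il6st, 7 at Stat3 and 23 at Socs3. Of the 95, 15 lay within 1 kb of the start and 92 within 100 kb.

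IL-6, leukaemia inhibitory factor (LIF) and oncostatin M (OSM) belong to one cytokine family because their receptors share the signalling subunit gp130, the product of Il6st. IL-6 first binds its own receptor, the product of Il6ra, and the complex then joins gp130, whose associated JAK kinases phosphorylate STAT3. Activated STAT3 drives Socs3, whose protein binds gp130 and JAK and shuts the signal down. In the liver, IL-6 from Kupffer cells is known for inducing the acute phase response in hepatocytes.

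The groups were male mice, all fasted overnight, with Kupffer cells sorted in the presence of flavopiridol, a blocker of transcription. LPS groups came from C57BL/6J (n = 3), BALB/cJ (n = 2) and CB6F1/J (n = 5) mice injected intraperitoneally with 0.1 mg/kg lipopolysaccharide (LPS) from E. coli O114:B4, a bacterial product sensed by TLR4, 2 h before. These group sizes follow the sample titles. A figure legend of the study gives the reverse for LPS, with n = 2 for C57BL/6J and n = 3 for BALB/cJ. Control groups came from uninjected A/J (n = 4), C57BL/6J (n = 4), BALB/cJ (n = 4) and CB6F1/J (n = 4) mice, so that no control received an injection. CB6F1/J is the first-generation cross of BALB/cJ and C57BL/6J, so each of its nuclei holds an allele from either parent. Per the study's methods, the animals were 8 to 12 weeks old. The hybrid control columns of the deposited table are named chow and were matched to the control samples by replicate number, and the descriptions of the hybrid LPS samples also name chow peak lists, so the match of these columns rests on the replicate numbers.

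The inbred libraries held 2.08 to 7.54 M tags in nuclear peaks, apart from BALB/cJ control replicate 4 with 47.2 M. C57BL/6J LPS replicate 1 stood apart from its group: at the peaks called higher after LPS in BALB/cJ, its median log2 difference from the C57BL/6J controls was 0.66, against 1.48 and 1.63 in the other 2 libraries. All 12 Kupffer cell markers had a promoter peak, with summed normalised counts of 790 to 1180 in the 5 inbred LPS libraries and 1427 to 1728 in the 12 inbred control libraries. Of the defining promoters of other cells, 1 of 6 for hepatocytes, 2 of 6 for endothelium, 1 of 4 for stellate cells, 3 of 5 for neutrophils, 1 of 4 for monocytes and 0 of 5 for lymphocytes had a peak. The neutrophil sums were 158 to 188 in the inbred LPS libraries and 127 to 231 in the inbred controls. The monocyte sum rests on the Plac8 promoter and was 6.10 to 34.0 in the inbred LPS libraries and 1.32 to 18.2 in the inbred controls. The part of these differences in the results was not tested. Control and LPS libraries carry different library dates, so that treatment and date cannot be told apart. All values of the inbred LPS libraries are whole numbers, whereas 39.7 to 49.7% of values in an inbred control library are not. In the hybrid, LPS and control libraries both hold values that are not whole. The part of this difference in the results was not tested.

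The sequences of 5 peaks and 2 promoters on which the results turn are printed first. They come from the reference genome GRCm38 (mm10), which is that of C57BL/6J, so they do not show the bases of BALB/cJ or A/J. Capitals mark matches to the motif letters searched on both strands, namely TTCNNNGAA for STAT factors, TGANTCA for AP-1, GGANTTTCC for NF-kB, GAGGAAGT for PU.1, TTGCNNAA for C/EBP and GAAANNGAA for IRF factors. The printed Lif and Il6 peaks opened after LPS and hold matches for AP-1 and C/EBP. Lif +69210, which is not printed, had the smallest p of the Lif peaks for LPS in C57BL/6J and holds a match to none of the letters. The Socs3 peak opened and the Il6st peak closed with a match to none of the letters, and the Osm peak was open in BALB/cJ and nearly closed in C57BL/6J.
Lif +27896 (chr11:4294592-4294792, plus strand): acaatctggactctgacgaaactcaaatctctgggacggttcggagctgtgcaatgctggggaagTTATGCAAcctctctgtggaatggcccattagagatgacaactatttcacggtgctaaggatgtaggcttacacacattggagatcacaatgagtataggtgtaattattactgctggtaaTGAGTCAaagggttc
Il6 -62135 (chr5:29950879-29951079, plus strand): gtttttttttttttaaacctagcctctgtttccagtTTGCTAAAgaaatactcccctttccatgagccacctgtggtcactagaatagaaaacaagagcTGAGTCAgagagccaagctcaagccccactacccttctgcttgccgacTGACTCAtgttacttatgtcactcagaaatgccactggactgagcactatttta
Socs3 -1857 (chr11:117971123-117971323, plus strand): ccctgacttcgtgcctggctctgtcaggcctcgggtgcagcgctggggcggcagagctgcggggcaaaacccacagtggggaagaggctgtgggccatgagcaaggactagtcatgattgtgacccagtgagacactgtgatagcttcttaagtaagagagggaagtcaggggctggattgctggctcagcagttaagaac
Il6st +184 (chr13:112464154-112464354, plus strand): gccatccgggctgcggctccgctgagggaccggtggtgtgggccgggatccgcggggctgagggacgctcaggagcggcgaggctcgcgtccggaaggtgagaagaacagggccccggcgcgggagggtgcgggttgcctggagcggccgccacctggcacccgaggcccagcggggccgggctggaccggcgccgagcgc
Osm -3925 (chr11:4232760-4232960, plus strand): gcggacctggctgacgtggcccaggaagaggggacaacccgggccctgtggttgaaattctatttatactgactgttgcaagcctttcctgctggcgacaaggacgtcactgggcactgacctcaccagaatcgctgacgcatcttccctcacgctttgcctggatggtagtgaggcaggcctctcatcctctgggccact
Il6 promoter (chr5:30012864-30013113, plus strand): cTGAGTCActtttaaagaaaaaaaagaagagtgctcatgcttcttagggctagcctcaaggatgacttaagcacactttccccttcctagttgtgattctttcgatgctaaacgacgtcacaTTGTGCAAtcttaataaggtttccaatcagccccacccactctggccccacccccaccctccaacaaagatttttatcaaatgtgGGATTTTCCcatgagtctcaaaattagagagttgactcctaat
Socs3 promoter (chr11:117969367-117969616, minus strand): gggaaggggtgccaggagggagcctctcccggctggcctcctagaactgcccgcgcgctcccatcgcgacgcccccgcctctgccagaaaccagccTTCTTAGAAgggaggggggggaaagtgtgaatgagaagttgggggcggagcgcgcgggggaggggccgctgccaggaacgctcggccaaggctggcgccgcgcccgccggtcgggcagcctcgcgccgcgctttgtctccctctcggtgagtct

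The promoters are the 250 bases before the RefSeq start (GRCm38.p6), and such sequences matched 6 of the 7 genes. The Il6 promoter holds AP-1, C/EBP and NF-kB letters and the Socs3 promoter holds STAT letters. Over 32851 promoters of this length, 6.75% held AP-1, 9.56% C/EBP, 1.07% NF-kB and 7.02% STAT letters. Such a match is a description of the letters in the window and not a binding site.

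After LPS, peaks of the cytokine gene Lif and of the inhibitor Socs3 were called higher in Kupffer cells of both inbred strains and of the hybrid. Some distal Il6 peaks were called higher in each as well, but in BALB/cJ as many Il6 peaks were called lower as higher. A peak was called when its adjusted p was under 0.05 and its log2 ratio beyond 1 in either direction, in edgeR's quasi-likelihood test with Benjamini-Hochberg adjustment over all peaks tested. In C57BL/6J, 22 of 91 member peaks tested were higher and 2 were lower after LPS, beside 12.3% and 8.07% of all 91975 peaks tested. In BALB/cJ, 26 of 90 were higher and 8 lower, beside 16.2% and 11.3% of 93363 peaks. In CB6F1/J, 51 of 201 were higher and 8 lower, beside 14.3% and 10.5% of 214055 peaks. A peak whose control mean lay below the minimum of 4 was tested only through its LPS libraries and could only be called higher. These counts include such peaks, and the shares of all peaks were taken under the same minimum. The median log2 ratio of the members was 0.41 in C57BL/6J, 0.47 in BALB/cJ and 0.50 in CB6F1/J, beside medians over all peaks of -0.03, -0.07 and -0.09. The groups did not overlap at 14 of the 22 higher peaks in C57BL/6J, 25 of 26 in BALB/cJ and 44 of 51 in CB6F1/J, beside 71.6%, 98.4% and 88.0% of all peaks called higher. Without C57BL/6J LPS replicate 3 the C57BL/6J count was 12 peaks (10 higher, 2 lower), and without replicate 1, the library that stood apart, it was 30 (26 higher, 4 lower). In BALB/cJ, scaling to total tags gave 29 higher and 4 lower. Scaled that way, the median of all peaks was 0.07 in C57BL/6J, 0.06 in BALB/cJ and -0.22 in CB6F1/J.

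**Figure D1:**
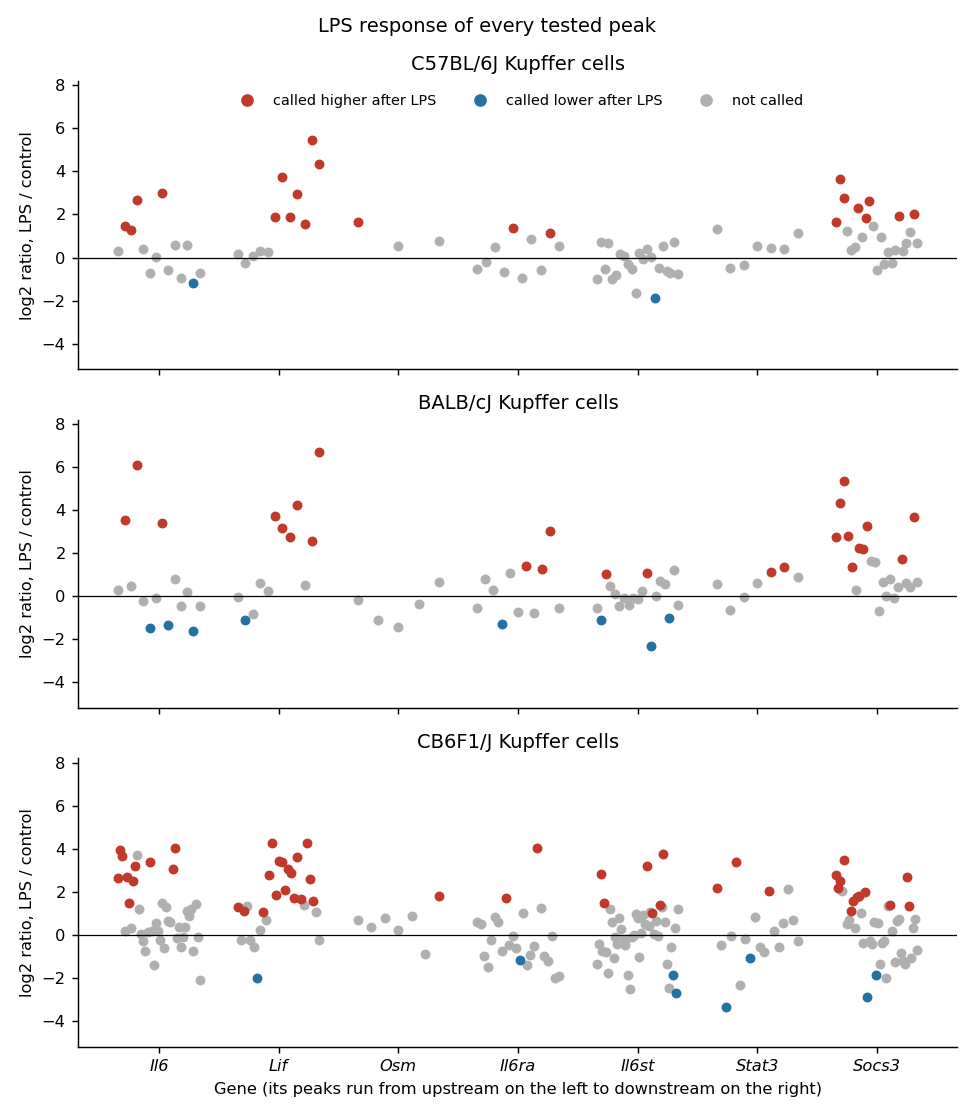
Log2 ratio of LPS over control (y axis) for every tested peak of the 7 genes (x axis), for C57BL/6J at the top, BALB/cJ in the middle and CB6F1/J at the bottom. Red points were called higher and blue points lower after LPS, and most red points belong to Lif, Socs3 and Il6 in each panel.

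The cytokine gene Lif had the highest share of peaks called higher: 7 of 12 in C57BL/6J, 6 of 12 in BALB/cJ and 17 of 27 in CB6F1/J, with 1 peak lower in BALB/cJ and 1 in CB6F1/J. Its median log2 ratio was 1.71 in C57BL/6J, 1.60 in BALB/cJ and 1.57 in CB6F1/J, and under the other scalings it stayed between 1.32 and 1.83. In the inbred strains the opened Lif peaks lay downstream, between +27333 and +69663, in sequence annotated as intergenic. LIF is made by many cells under inflammation and signals through its own receptor and gp130.

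At Lif +27896, whose sequence is printed above, the normalised counts were 18.3, 106 and 153 in C57BL/6J LPS libraries and 4.6, 6.4, 6.5 and 12.0 in C57BL/6J control libraries. In BALB/cJ they were 154 and 164 in LPS libraries and 13.2, 28.3, 21.5 and 11.9 in control libraries. Every LPS library lay above every control library of its strain, and C57BL/6J LPS replicate 1 was the low one. The log2 ratio was 3.74 (SE 0.50, adjusted p = 1.91e-06) in C57BL/6J and 3.16 (SE 0.46, adjusted p = 3.46e-06) in BALB/cJ, by edgeR's quasi-likelihood test. The hybrid peak at Lif +27866 had normalised counts of 602, 617, 572, 601 and 456 in LPS libraries and 42.4, 30.8, 30.8 and 13.5 in control libraries. Its log2 ratio of 4.26 (SE 0.23, adjusted p = 1.25e-13, edgeR) had the smallest p of the member peaks in CB6F1/J.

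Lif +69210 had low untreated counts in both strains, lower in C57BL/6J than in BALB/cJ. Its counts were 7.0, 39.1 and 61.3 in C57BL/6J LPS libraries and 1.2, 0, 0 and 1.3 in C57BL/6J controls, against 47.0 and 62.4 in BALB/cJ LPS libraries and 11.9, 6.8, 6.7 and 10.2 in BALB/cJ controls. The log2 ratio for LPS was 5.45 (SE 0.71, adjusted p = 1.09e-06) in C57BL/6J and 2.57 (SE 0.50, adjusted p = 0.000166) in BALB/cJ, by edgeR. The difference of these responses was 2.88 (SE 0.97) with an adjusted p of 0.39, which misses the threshold. The untreated level was below the minimum of the strain comparison, and without a minimum C57BL/6J over BALB/cJ was -3.45 (SE 0.77, adjusted p = 0.00218, edgeR).

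Lif +30271, +42045 and +27333 opened in both strains as well. In C57BL/6J the +42045 call (log2 ratio 2.97, SE 0.64) was lost without LPS replicate 3 (1.71, adjusted p = 0.0904, edgeR), and the +27333 call (1.90, SE 0.71) was lost without any one of the 4 control libraries (adjusted p = 0.0763, 0.0754, 0.0846 and 0.0582). At Lif +30271 the counts were 4.2, 28.9 and 28.7 in C57BL/6J LPS libraries and 7.0, 9.6, 5.2 and 1.3 in controls, and 87.1 and 103 in BALB/cJ LPS libraries and 9.2, 15.6, 18.8 and 13.7 in controls. The groups overlapped in C57BL/6J through LPS replicate 1 and did not in BALB/cJ. Under LPS, C57BL/6J was lower than BALB/cJ at Lif +30271 (log2 ratio -2.13, SE 0.46, adjusted p = 0.0026, edgeR), a call lost without BALB/cJ LPS replicate 2 (adjusted p = 0.0647). The same comparison at Lif +27333 gave -2.11 (SE 0.63, adjusted p = 0.0386, edgeR). That call was lost without any one of the 3 C57BL/6J LPS libraries (adjusted p = 0.117, 0.0689 and 0.0598). The C57BL/6J LPS libraries lay below the minimum of the strain comparisons at Lif +27333. The peak was tested there only through BALB/cJ, which fixed the direction.

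The inhibitor Socs3 opened on both sides of its start. LPS raised 8 of 23 tested peaks in C57BL/6J, 10 of 22 in BALB/cJ and 12 of 40 in CB6F1/J, with none lower in the inbred strains and 2 lower in CB6F1/J. The median log2 ratio over the Socs3 peaks was 0.97 in C57BL/6J, 1.48 in BALB/cJ and 0.57 in CB6F1/J.

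At Socs3 -1857 the counts were 1.4, 36.5 and 26.3 in C57BL/6J LPS libraries and 1.7, 3.2, 1.3 and 8.0 in control libraries. In BALB/cJ they were 44.4 and 70.4 after LPS and 0, 1.0, 1.3 and 1.7 in controls. The peak was almost closed in every control library, and C57BL/6J LPS replicate 1 stayed at that level. The log2 ratio was 2.74 (SE 0.71, adjusted p = 0.00378) in C57BL/6J and 5.34 (SE 0.73, adjusted p = 1.36e-06) in BALB/cJ, by edgeR, and the difference between strains did not pass (adjusted p = 0.54). In CB6F1/J, Socs3 -1853 had counts of 202, 223, 220, 182 and 241 after LPS and 20.7, 34.9, 0 and 21.4 in controls, without overlap.

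Socs3 -6874 behaved alike, with 5.6, 25.5 and 36.6 in C57BL/6J LPS libraries against 2.3, 1.6, 0 and 2.7 in controls, and 25.3 and 29.0 in BALB/cJ LPS libraries against 1.3, 2.9, 1.3 and 0.83 in controls. This peak too passed the minimum only through LPS libraries in both strains. Its 201 bases hold 1 STAT match, the only STAT match in the 32 member peaks that were higher in either inbred strain. Within the gene, Socs3 +789 in the intron rose in both strains, with log2 ratios of 2.31 (SE 0.43) in C57BL/6J and 2.22 (SE 0.47) in BALB/cJ, both called.

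The Socs3 promoter peak at +108, in the first exon, was already open in controls. Its counts were 145, 265 and 195 in C57BL/6J LPS libraries and 171, 205, 116 and 91.7 in controls, and 156 and 181 in BALB/cJ LPS libraries and 173, 221, 84.6 and 88.2 in controls. The groups overlapped in both strains and the peak was not called (log2 ratio 0.47, SE 0.26, adjusted p = 0.19 in C57BL/6J and 0.27, SE 0.30, adjusted p = 0.51 in BALB/cJ, edgeR). In CB6F1/J the promoter peak at Socs3 +152 was called, with counts of 913, 893, 839, 1018 and 873 after LPS and 357, 456, 418 and 461 in controls. That log2 ratio was 1.10 (SE 0.13, adjusted p = 1.67e-07, edgeR), just past the limit of 1, and it was under the limit with loess offsets (0.99), total tag scaling (0.97) and without control replicate 1 (0.94). The hybrid and inbred tables were not normalised together and their windows differ, so the 2 results were not tested against each other. Another peak within 1 kb of the start, Socs3 -673, was called higher in BALB/cJ (log2 ratio 1.37). That peak was not called in C57BL/6J (0.34), nor was its counterpart in CB6F1/J (0.70).

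The opened Il6 peaks lay far upstream of the start. LPS raised 4 and lowered 1 of 14 Il6 peaks in C57BL/6J, raised 3 and lowered 3 of 14 in BALB/cJ and raised 10 and lowered 0 of 40 in CB6F1/J. IL-6 itself is one of the cytokines that macrophages secrete on TLR4 signalling.

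Il6 -62135, printed above, had counts of 19.7, 62.0 and 78.9 in C57BL/6J LPS libraries and 5.2, 9.6, 1.3 and 12.0 in controls. In BALB/cJ it had 42.7 and 67.7 after LPS and 14.5, 7.8, 2.7 and 1.8 in controls. LPS and control libraries did not overlap in either strain. The log2 ratio was 3.01 (SE 0.57, adjusted p = 0.00018) in C57BL/6J and 3.40 (SE 0.61, adjusted p = 5.91e-05) in BALB/cJ, by edgeR. The hybrid peak at Il6 -62111 had counts of 260, 262, 267, 232 and 178 after LPS and 15.1, 29.4, 30.8 and 19.2 in controls (log2 ratio 3.36, SE 0.27, adjusted p = 1.93e-10, edgeR). These 3 calls held under every alternative run.

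Il6 -92611 was called in both strains from different starting levels. The counts were 23.9, 52.6 and 54.2 in C57BL/6J LPS libraries and 4.6, 11.2, 5.2 and 8.0 in controls, against 13.1 and 10.6 in BALB/cJ LPS libraries and 1.3, 0, 0 and 0 in BALB/cJ controls. The BALB/cJ control libraries held almost no tags there, so only the C57BL/6J ratio is given (log2 2.67, SE 0.56, adjusted p = 0.000566, edgeR). In BALB/cJ the peak passed the minimum only through its LPS libraries, which fixed the direction of that call. Il6 -119081 was called in both strains too, but in C57BL/6J the call (log2 ratio 1.45, adjusted p = 0.034, edgeR) was lost without control replicate 1, 2 or 4 or LPS replicate 2 or 3 (adjusted p = 0.0614, 0.0705, 0.0699, 0.0884 and 0.264). It was also lost with the replicate block (adjusted p = 0.0977).

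The Il6 promoter peak at -50, whose window holds the NF-kB and C/EBP letters, was open without LPS and was not called after it. Its counts were 52.0, 56.9 and 32.7 in C57BL/6J LPS libraries and 84.6, 143, 66.3 and 69.1 in controls, and 23.5 and 43.1 in BALB/cJ LPS libraries and 36.9, 74.1, 55.0 and 26.3 in controls. In C57BL/6J every LPS library lay below every control, with a log2 ratio of -0.94 (SE 0.34, adjusted p = 0.0356, edgeR) that is inside the limit of 1. In BALB/cJ the groups overlapped (log2 ratio -0.48, SE 0.40, adjusted p = 0.38, edgeR). The hybrid promoter peak at Il6 -199 had counts of 362, 412, 415, 362 and 396 after LPS and 418, 344, 470 and 459 in controls, and it was not called (log2 ratio -0.12, SE 0.15). Counting all tags in place of perfectly mapped tags turned this ratio to 1.21.

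Downstream, Il6 +23022 closed in both strains, with 25.3, 29.7 and 28.7 in C57BL/6J LPS libraries against 49.9, 88.3, 50.7 and 70.5 in controls, and 31.4 and 24.6 in BALB/cJ LPS libraries against 80.4, 111, 113 and 50.8 in controls. The log2 ratio was -1.18 (SE 0.32, adjusted p = 0.00527) in C57BL/6J and -1.63 (SE 0.36, adjusted p = 0.000608) in BALB/cJ, by edgeR. The C57BL/6J call was lost without control replicate 2, where the ratio was -0.98.

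**Figure D2:**
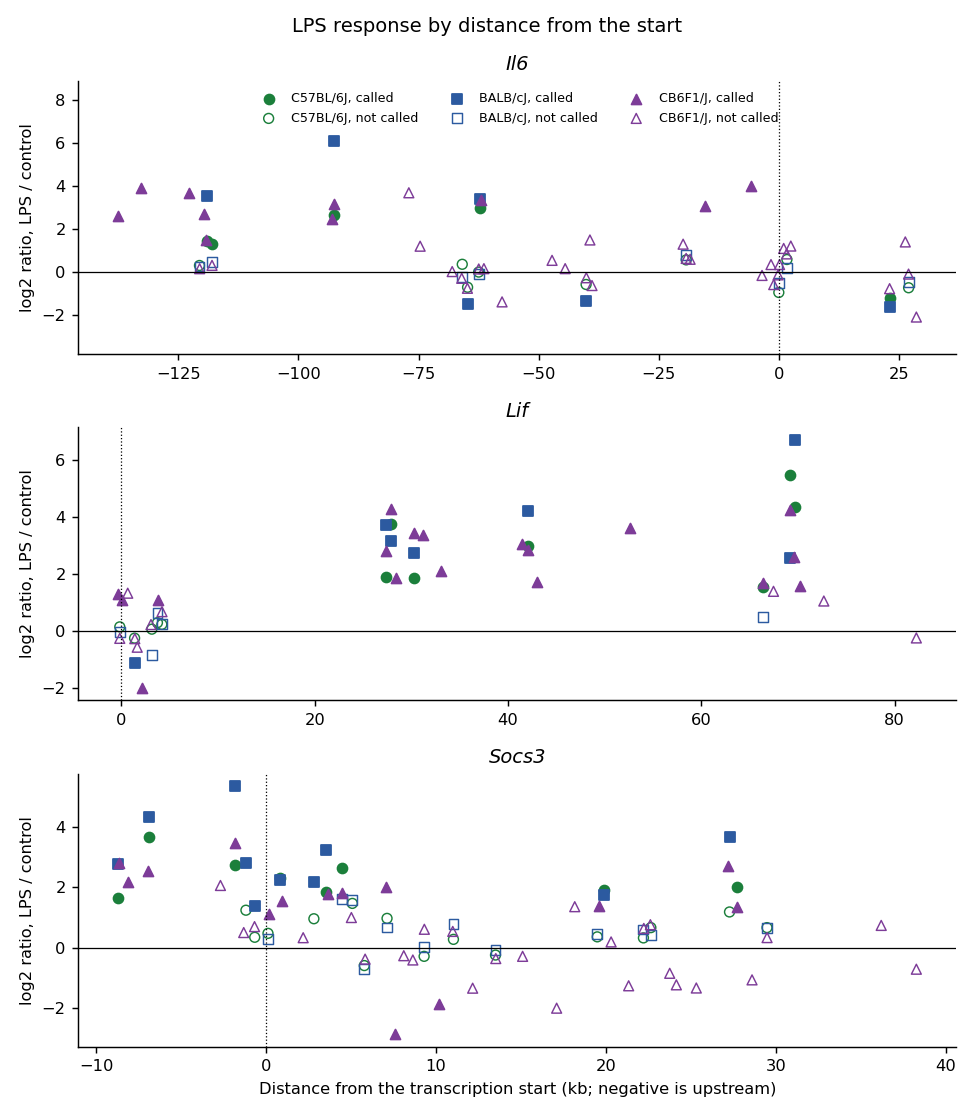
Log2 ratio of LPS over control (y axis) against the distance in kb from the transcription start (x axis) for the peaks of Il6, Lif and Socs3. Circles are C57BL/6J, squares BALB/cJ and triangles CB6F1/J, and filled symbols were called. The high Lif points lie far downstream and the high Il6 points far upstream of the start, whereas those of Socs3 lie on both sides.

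LPS raised 1 of 3 tested Osm peaks in C57BL/6J, 0 of 5 in BALB/cJ and 1 of 7 in CB6F1/J, and lowered 0 in each. The gene lies next to Lif on chromosome 11, and its product, a gp130 cytokine made by myeloid cells, acts on hepatocytes and stroma. In the strain comparisons, 2 of the 5 Osm peaks had a mean above the minimum of 16, and they had it only through their BALB/cJ libraries, so the minimum itself fixed the direction of these differences and they are given below as descriptions of the 2 peaks. Over all 7 genes, C57BL/6J against BALB/cJ gave 1 higher and 3 lower of 52 member peaks, beside 3.13% and 4.16% of all peaks. A/J against BALB/cJ gave 1 higher and 4 lower of 54, beside 1.57% and 3.0%. A/J against C57BL/6J gave 2 higher and 3 lower of 52, beside 3.29% and 3.87%. The 3 comparisons share control libraries, and the lower counts of the first 2 include the 2 Osm peaks. Without BALB/cJ control replicate 4 the first count was 2 peaks, without its replicate 2 it was 7, and the second was 2 without BALB/cJ replicate 4 and 3 without A/J replicate 2. The third was 2 without A/J replicate 1 and 3 without C57BL/6J replicate 1.

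At Osm -3925, printed above, the counts were 13.9, 4.4, 10.2 and 9.4 in A/J controls and 4.1, 3.2, 2.6 and 4.0 in C57BL/6J controls, against 87.0, 97.5, 211 and 94.4 in BALB/cJ controls. Under LPS the C57BL/6J libraries had 1.4, 4.2 and 25.5, against 93.2 and 121 for BALB/cJ. Every BALB/cJ library lay above every library of the other strains. The log2 ratio of C57BL/6J over BALB/cJ was -5.05 (SE 0.49) in controls and -3.22 (SE 0.49) under LPS. That of A/J over BALB/cJ was -3.72 (SE 0.45). These 3 ratios describe the peak and are not tests of a strain difference. The LPS ratio of this peak in C57BL/6J (1.65, SE 0.62, adjusted p = 0.0469, edgeR) came with 25.5 in LPS replicate 3 and control-like counts in the other 2 libraries. It was lost in 8 of 12 alternatives, among them leaving out any one of the 4 control libraries (adjusted p = 0.0823, 0.0752, 0.0892 and 0.0733).

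Osm +3656, in the 3′ untranslated part of the last exon, had 7.7, 10.9, 6.1 and 9.4 in A/J controls and 5.2, 4.8, 7.8 and 4.0 in C57BL/6J controls, against 25.1, 25.4, 26.8 and 50.9 in BALB/cJ controls. Under LPS the C57BL/6J libraries had 5.6, 13.6 and 8.0, against 51.4 and 52.8 for BALB/cJ. BALB/cJ was again above both other strains without overlap. The log2 ratios were -2.60 (SE 0.40) for C57BL/6J and -1.92 (SE 0.39) for A/J in controls. Under LPS the ratio for C57BL/6J was -2.47 (SE 0.45). All 5 Osm peaks were in the reproducible peak list of BALB/cJ controls, and 0 were in those of A/J and C57BL/6J controls. Of all 95 members, 68 were in the BALB/cJ control list, 51 in that of A/J and 52 in that of C57BL/6J. The part of sequencing depth in these lists was not tested. These list counts are given without the share of all peaks in each list, so they are not a result about these genes. Without BALB/cJ control replicate 4, the deepest library, the -3925 ratios in controls were -5.14 for C57BL/6J and -3.83 for A/J. Osm +3656 fell below the minimum without that library and was not tested.

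In the hybrid, Osm -3944, the counterpart of -3925, had counts of 149, 176, 138, 169 and 145 after LPS and 48.1, 134, 74.4 and 104 in controls, and was not called (log2 ratio 0.79, SE 0.26, adjusted p = 0.0218, edgeR). Osm +3666 rose, with 156, 92.7, 126, 138 and 120 after LPS and 34.0, 29.4, 48.8 and 33.8 in controls (log2 ratio 1.79, SE 0.29, adjusted p = 2.21e-05, edgeR). No LPS library overlapped a control there. None of the 7 hybrid Osm peaks held a tag that spans a variant between the parents, so the alleles could not be compared at this gene.

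**Figure D3:**
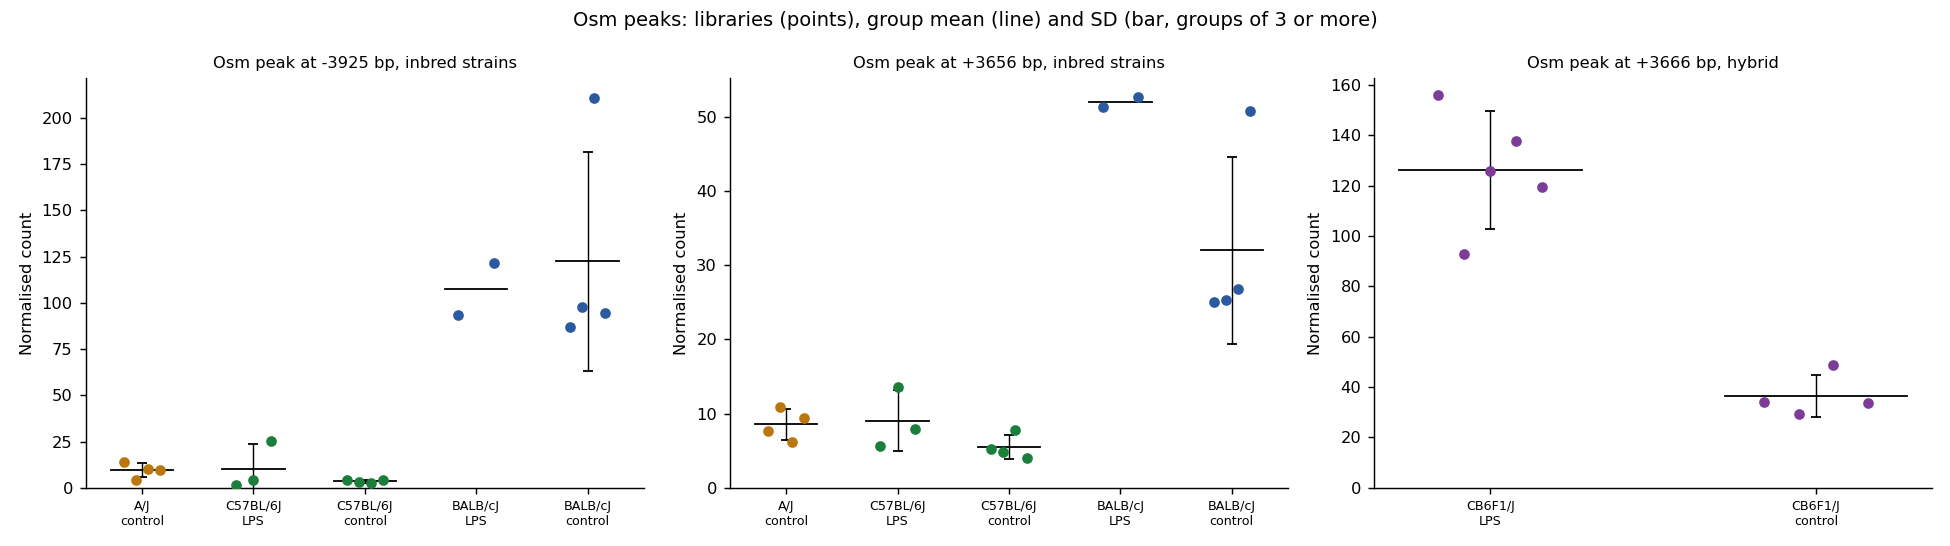
Normalised counts (y axis) of 2 Osm peaks in the inbred groups and of the +3666 peak in the hybrid, with each library as a point, the group mean as a line and the SD as a bar for groups of 3 or more. All BALB/cJ libraries sit above the A/J and C57BL/6J libraries at -3925 and +3656.

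At the receptor subunit genes, peaks were called in both directions. Il6st, which encodes gp130, had 0 of 22 peaks higher and 1 lower in C57BL/6J, 2 of 19 higher and 3 lower in BALB/cJ and 6 of 45 higher and 2 lower in CB6F1/J. Il6ra, which encodes the IL-6 binding subunit, had 2 of 10 higher in C57BL/6J, 3 of 11 higher and 1 lower in BALB/cJ and 2 of 24 higher and 1 lower in CB6F1/J.

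Il6st +184, in the first intron beside the start, fell in both inbred strains. Its counts were 25.3, 19.5 and 31.1 in C57BL/6J LPS libraries and 87.0, 125, 68.9 and 94.4 in controls, and 11.3 and 23.7 in BALB/cJ LPS libraries and 81.7, 84.8, 128 and 60.4 in controls. No LPS library reached the lowest control library. The log2 ratio was -1.88 (SE 0.32, adjusted p = 4.96e-05) in C57BL/6J and -2.30 (SE 0.39, adjusted p = 2.31e-05) in BALB/cJ, by edgeR, and both calls held under every alternative run. The nearest hybrid peak, Il6st +365, was not called and had 147, 158, 125, 205 and 114 after LPS and 142, 133, 130 and 173 in controls (log2 ratio 0.05, SE 0.22, adjusted p = 0.87, edgeR). The peak lies in a CpG island by the annotation of the deposited table. Among all promoter peaks so annotated, 31.5% were lower after LPS in C57BL/6J (median log2 ratio -0.82), 31.1% in BALB/cJ (median -0.81) and 16.9% in CB6F1/J (median -0.41). The part of this shared shift in the Il6st value was not tested.

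Among the other Il6st peaks, -36419 was lower in A/J than in the other strains. Its counts were 6.2, 12.0, 8.1 and 14.1 in A/J controls, against 43.5, 41.7, 41.6 and 30.6 in C57BL/6J controls and 29.0, 49.7, 14.8 and 29.3 in BALB/cJ controls. A/J lay below both without overlap (log2 ratio -1.93, SE 0.39 against C57BL/6J and -1.58, SE 0.39 against BALB/cJ). Both calls held under every alternative in which the peak was tested. Every A/J library lay below the minimum of the strain comparisons, so the peak was tested only through the other strain. The minimum thus fixed the direction, and these ratios describe the peak and are not tests of a strain difference. In CB6F1/J, Il6st -80705, +9037 and -20237 opened, with log2 ratios of 2.85 (SE 0.46), 3.75 (SE 0.67) and 3.22 (SE 0.60), and the promoter peak at -344 rose by 1.02 (SE 0.28), just past the limit of 1. Its inbred counterpart, Il6st -387, was called higher in BALB/cJ (log2 ratio 1.09) and was not called in C57BL/6J (0.002). Il6st -387 lies 571 bp from Il6st +184, which fell, and their counting windows overlap.

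Il6ra +16457 in the first intron opened in BALB/cJ, with 27.0 and 25.5 in LPS libraries and 1.3, 2.9, 0 and 5.2 in controls (log2 ratio 3.02, SE 0.70, adjusted p = 0.00108, edgeR). There the peak passed the minimum of 4 only through its LPS libraries, which fixed the direction. In C57BL/6J it had 8.4, 2.5 and 8.8 after LPS and 0, 3.2, 1.3 and 1.3 in controls, below the minimum for a test. With no minimum the C57BL/6J log2 ratio was 2.43 (SE 0.92, adjusted p = 0.0488, edgeR), at these low counts. The hybrid peak at Il6ra +16430 had 95.9, 147, 118, 94.6 and 56.9 after LPS and 12.3, 5.6, 1.3 and 4.5 in controls, without overlap (log2 ratio 4.02, SE 0.47, adjusted p = 1.26e-07, edgeR). Il6ra +7974 rose in both inbred strains, by 1.12 (SE 0.31) in C57BL/6J and 1.28 (SE 0.33) in BALB/cJ. Il6ra +1861 fell in BALB/cJ, with 119 and 116 after LPS and 280, 296, 299 and 262 in controls (log2 ratio -1.27, SE 0.18, adjusted p = 2.86e-06, edgeR), a call lost with loess offsets (-0.72). In C57BL/6J it had 171, 126 and 120 after LPS and 207, 226, 235 and 226 in controls and its log2 ratio of -0.69 (SE 0.16) was inside the limit of 1. The Il6ra promoter peak at -13 had 85.7, 127 and 119 in C57BL/6J LPS libraries and 146, 202, 168 and 142 in controls, and was not called (log2 ratio -0.55, SE 0.19, adjusted p = 0.0253, edgeR).

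Stat3 encodes the factor that the cytokines activate. The promoter peak at Stat3 +18 had the highest mean count of the 95 inbred peaks: 326, 375 and 307 in C57BL/6J LPS libraries and 462, 576, 458 and 375 in controls, and 241 and 247 in BALB/cJ LPS libraries and 407, 491, 294 and 349 in controls. In BALB/cJ the LPS libraries lay below the controls and in C57BL/6J 1 LPS library reached the lowest control, and neither ratio passed the limit of 1 (-0.47, SE 0.16 in C57BL/6J and -0.66, SE 0.19 in BALB/cJ). In all, 0 of 7 Stat3 peaks were called in C57BL/6J and 2 of 7 were higher in BALB/cJ, where +11981 rose by 1.38 (SE 0.45) and +7799 by 1.15 (SE 0.38). Both BALB/cJ calls were lost without control replicate 4 (adjusted p = 0.064 and 0.0778, edgeR), the +11981 call also without LPS replicate 1 (0.113) and the +7799 call without LPS replicate 2 (0.154) or with the replicate block (0.0535). In CB6F1/J, 3 of 18 were higher and 2 lower, and the intergenic peak at Stat3 -7455 had 77.7, 54.9, 56.1, 46.2 and 47.2 after LPS and 10.4, 0, 5.1 and 4.5 in controls (log2 ratio 3.39, SE 0.56, adjusted p = 3.09e-05, edgeR).

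In untreated cells, peaks of Lif and Stat3 were called between strains too. At each peak named here, the strain with fewer tags had a mean below the minimum of the strain comparisons. Each was therefore tested only through the other strain, which fixed the direction. The ratios describe the peaks and are not tests of a strain difference. Lif +66407 was lower in C57BL/6J, with 10.4, 24.1, 13.0 and 10.6, than in BALB/cJ, with 36.9, 41.9, 57.7 and 44.3, without overlap (log2 ratio -1.69, SE 0.36, adjusted p = 0.00102, edgeR). Lif +4180, in the last exon, was higher in A/J, with 40.1, 33.9, 26.5 and 25.0, than in C57BL/6J, with 18.0, 9.6, 9.1 and 4.0 (log2 ratio 1.52, SE 0.39, adjusted p = 0.00863, edgeR). Stat3 +709 was higher in C57BL/6J than in BALB/cJ by 1.30 (SE 0.38, adjusted p = 0.023, edgeR), a call lost without C57BL/6J control replicate 1, 2 or 4 or BALB/cJ control replicate 3 or 4 (adjusted p = 0.0669, 0.067, 0.0677, 0.0634 and 0.132).

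**Figure D4:**
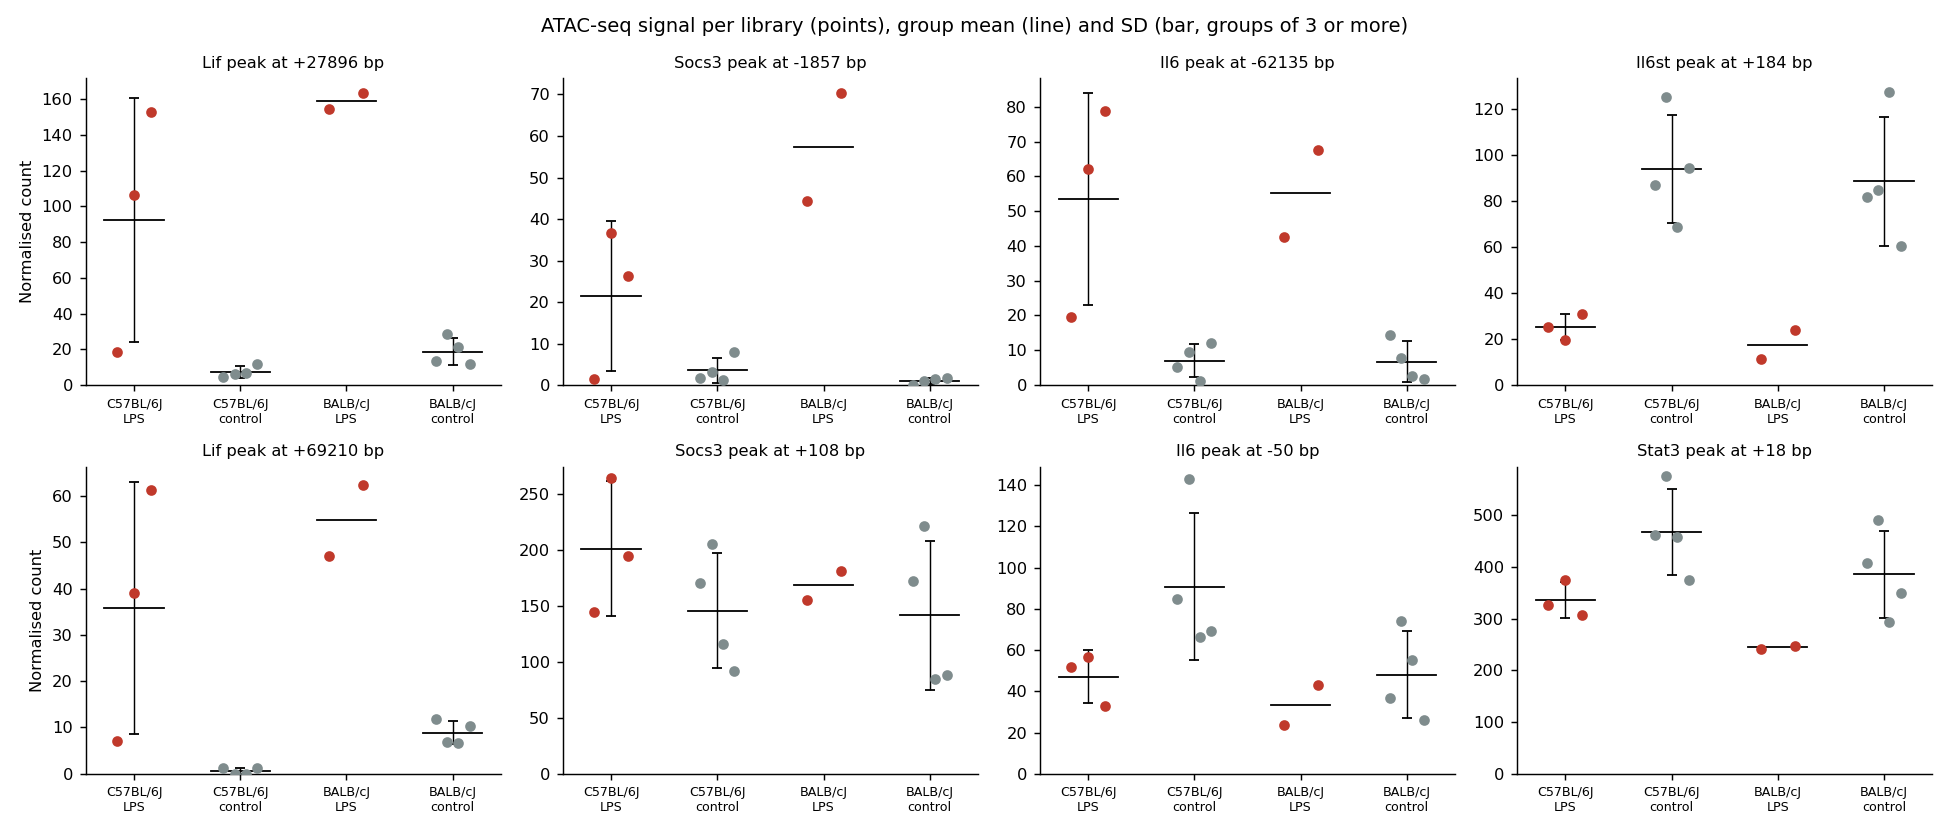
Normalised counts (y axis) of 8 peaks in C57BL/6J and BALB/cJ LPS and control libraries, with each library as a point, the group mean as a line and the SD as a bar for groups of 3 or more. LPS libraries (red) rise over controls (grey) at the distal Lif, Socs3 and Il6 peaks, except C57BL/6J LPS replicate 1 at Socs3 -1857, and fall below them at Il6st +184.

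Of the peaks called higher, 16 were called in both inbred strains, which is 72.7% of the 22 in C57BL/6J and 61.5% of the 26 in BALB/cJ, beside 77.0% and 57.5% of all peaks called higher. By gene, 6 were at Lif, 6 at Socs3, 3 at Il6 and 1 at Il6ra. Of these 16, 13 had a counterpart in the hybrid and 12 of the 13 were higher there as well, beside 96.2% of all such peaks. Of the 8 peaks called lower in either strain, 7 had a counterpart in the hybrid and 0 were lower there, beside 43.2% of all such peaks.

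No member passed the test of the strain difference in the LPS response. Of 94 peaks tested, 0 were called by edgeR, 13 had an unadjusted p under 0.05 and the smallest adjusted p was 0.27, and DESeq2 called 0 with 11 under 0.05. The 13 and 11 are given without the share of all peaks at that unadjusted threshold, so they are not a result about the members. Of all peaks tested, 0.144% were called in either direction. Under LPS, C57BL/6J against BALB/cJ gave 0 higher and 4 lower of 69 member peaks, beside 2.45% and 2.84% of all peaks. The 4 were the 2 Osm and 2 Lif peaks described above, and at the 2 Osm peaks the minimum fixed the direction. With loess offsets this comparison gave 1 higher and 3 lower.

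Tags that span a variant let the parental alleles be compared within one nucleus, but few members had any. Of the 201 hybrid peaks, 12 held such tags, 6 at Il6st, 5 at Il6ra and 1 at Stat3, and none at Il6, Lif, Osm or Socs3. At the Il6ra promoter peak the C57BL/6J allele had 453 tags and the BALB/cJ allele 471 over the 5 LPS animals, and 320 and 327 over the 4 control animals. The C57BL/6J allele had more tags in 3 LPS and 2 control animals and fewer in 2 and 1, with equal tags in 1 control animal. The log2 ratio of the C57BL/6J over the BALB/cJ allele was -0.08 after LPS and -0.07 in controls, in edgeR's fit with a term for each animal. At Il6st +365 the C57BL/6J allele had 136 and the BALB/cJ allele 128 tags after LPS, a log2 ratio of 0.10, and 36 and 49 in controls. Under LPS 0 of 2 tested members were called, beside 16.2% of all peaks, and in controls 0 of 1, beside 12.1%. The smallest adjusted p of these 3 tests was 0.76. The allele difference in the LPS response was tested at 3 members with 0 called and 0 with an unadjusted p under 0.05, beside 0.0% of 18218 peaks.

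**Figure D5:**
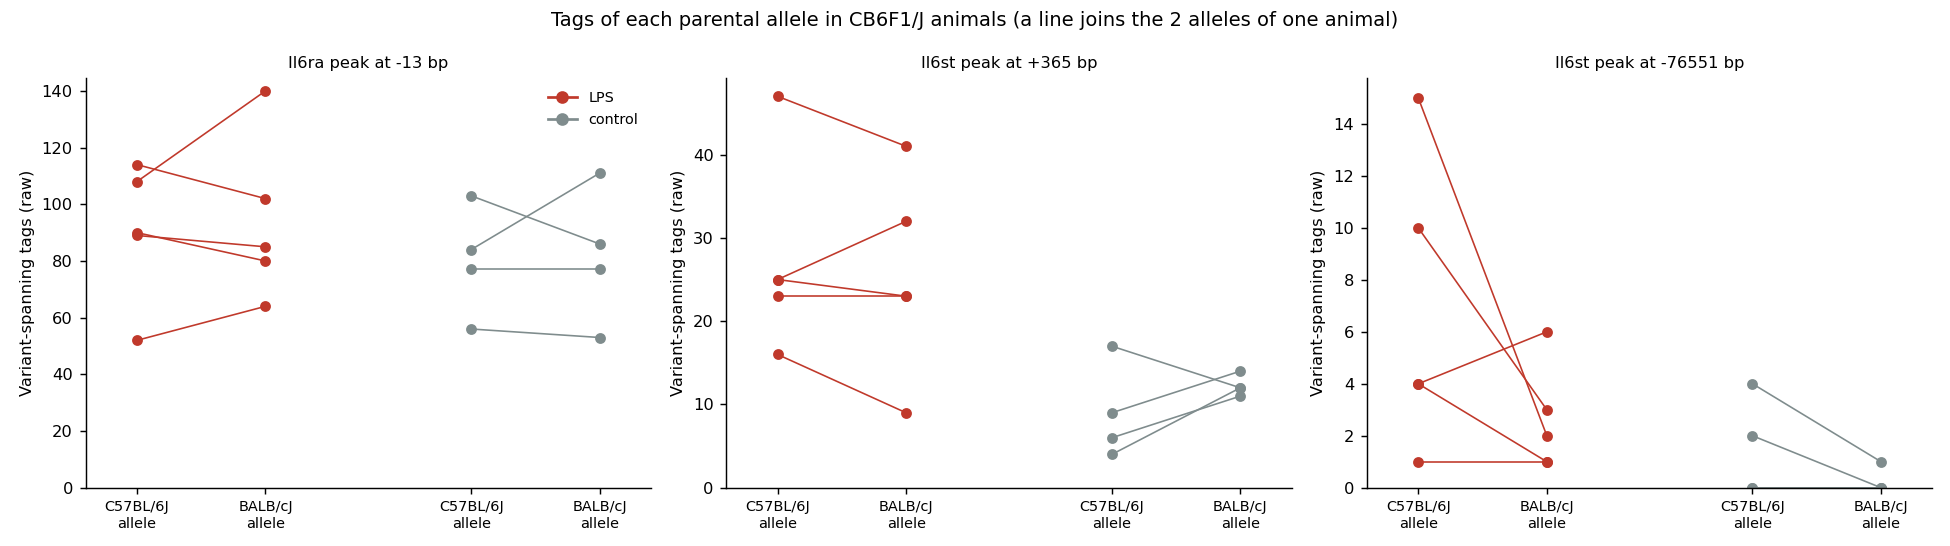
Raw variant-spanning tags (y axis) of the C57BL/6J and BALB/cJ alleles at 3 peaks, with LPS animals in red and control animals in grey and a line joining the alleles of one animal. At Il6ra -13 and Il6st +365 the lines run both ways. Il6st -76551, below the minimum for a test, was drawn because its C57BL/6J excess after LPS was the largest among Il6st peaks. There 3 of 5 LPS animals have more tags on the C57BL/6J allele. At Il6st -80705, not drawn, the BALB/cJ allele had more tags in 3 LPS animals and the C57BL/6J allele in 1.

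Motif letters were counted over the 201 bases of each inbred peak. AP-1 letters were in 10 of the 32 member peaks that were higher after LPS in either strain, beside 19 of all 95 members, 14.3% of all peaks and 41.9% of all peaks that were higher. C/EBP letters were in 9 of the 32, 16 of the 95, 11.6% of all peaks and 14.0% of all higher peaks. STAT letters were in 1 of the 32, 12 of the 95, 6.04% of all peaks and 7.36% of all higher peaks, and NF-kB letters in 0 of the 32, 1 of the 95, 1.57% of all peaks and 2.52% of all higher peaks. PU.1 letters were in 1 of the 32, 14 of the 95, 8.61% of all peaks and 6.06% of all higher peaks, and 3 of the 8 peaks that were lower held them, Il6ra +1861 among them. IRF letters were in 4 of the 32, 6 of the 95, 8.89% of all peaks and 9.14% of all higher peaks.

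Other genes of the pathway were counted from lists, to be read beside the shares of all peaks called after LPS, which for C57BL/6J were 12.3% higher and 8.07% lower, for BALB/cJ 16.2% and 11.3%, and for CB6F1/J 14.3% and 10.5%. Of 12 other ligands and receptors of the gp130 family, LPS raised 7 of 35 peaks in C57BL/6J, 11 of 36 in BALB/cJ and 18 of 80 in CB6F1/J, and lowered 2, 1 and 0. The higher peaks were 20.0%, 30.6% and 22.5% of this list, 13.2%, 20.9% and 16.7% of the next, 12.7%, 26.5% and 15.8% of the third and 12.9%, 22.8% and 17.3% of the last. The Il27 peak at -8986, beside the gene of a subunit of IL-27, rose by 4.58 (SE 0.62) in C57BL/6J and 5.43 (SE 0.66) in BALB/cJ. Of 11 JAK kinases, phosphatases and feedback regulators, 18 of 136 peaks were higher and 9 lower in C57BL/6J, 28 of 134 and 11 in BALB/cJ and 51 of 306 and 22 in CB6F1/J. Among them the peak at Socs1 +30881, beside another SOCS inhibitor, rose by 5.20 (SE 0.69) in C57BL/6J and 5.00 (SE 0.62) in BALB/cJ. Of 6 other receptors that signal through STAT3, 9 of 71 peaks were higher and 5 lower in C57BL/6J, 18 of 68 and 9 in BALB/cJ and 24 of 152 and 20 in CB6F1/J. Of 10 genes known as STAT3 targets, 21 of 163 peaks were higher and 17 lower in C57BL/6J, 36 of 158 and 22 in BALB/cJ and 49 of 283 and 47 in CB6F1/J. The median log2 ratio over the STAT3 targets was -0.14, -0.28 and -0.14 in the 3 backgrounds, beside -0.03, -0.07 and -0.09 over all peaks.

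The promoters most alike to those of the members were ranked by Pearson's r of the log2 normalised count over the 17 inbred libraries among 10853 promoters. The closest were Spred1 for Il6st (r = 0.98), Nme1 for Stat3 (0.97), Tbc1d17 for Il6ra (0.96), Ralgds for Socs3 (0.91) and Klhl5 for Il6 (0.91). All these libraries share the split between LPS and control, and the values are a description.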

How the data were processed

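ATAC-seq libraries of sorted Kupffer cells were analysed from 17 inbred and 9 CB6F1/J mice. Per the labels and the study's methods, the authors aligned reads with Bowtie2 to mm10 and strain genomes, called reproducible peaks, merged them and counted raw tags with HOMER in windows of 1000 bp around each peak. The deposited inbred LPS columns hold whole counts. The deposited inbred control and hybrid columns hold values in steps of 0.5, estimated counts here rounded up to whole numbers. Tags spanning parental variants were assigned to alleles by the authors with MMARGE.

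For nuclear peaks the quasi-likelihood test of edgeR 4.0.16 was run in R 4.3.3 after TMM scaling, with DESeq2 1.42.0 and cyclic loess offsets from limma 3.58.1 as alternatives. The 17 inbred libraries shared 1 model, and the allele fit had a term for each animal. A peak was tested at a mean normalised count above 16 for strains and alleles or above 4 for LPS, and called at an adjusted p under 0.05 with a log2 ratio beyond 1. A normalised count is the count scaled to the geometric mean of the effective library sizes, and inbred and hybrid scales differ. In the hybrid, perfectly mapped tags on the C57BL/6J genome replaced the planned all-tag columns as the main measure, after the data had been seen. In control libraries the perfectly mapped count exceeded the all-tag count in 37.7 to 69.5% of peaks, against 0.011 to 0.014% in LPS libraries. All tags were kept as an alternative.

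Named peaks were each gene's promoter peak (the highest within 1 kb of the start) and its called peaks, at most 4 per gene and comparison by p, with up to 3 genes per list. A few further peaks were named after their values were seen. The members and lists were chosen with earlier results of these data known. Hybrid counterparts overlapped by at least 50% both ways. Of the 95 peaks, 52 shared part of a counting window with another, so their counts are not independent. Labels do not say that libraries of a group came from separate preparations beyond separate samples, so p-values measure the spread between these samples. Each fit was tested on simulated data. Figures were drawn with matplotlib 3.10.9 in Python 3.11.15.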

Additional observations from a re-analysis of the deposited data

Results flagged for a closer look

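In 14 of 189 groups of 4 to 10 libraries, 1 library lay far from the rest by Dixon's criterion, which chance meets in about 1 of 20 groups. Values are normalised counts, with the nearest other library of the group second. At Lif +55, CB6F1/J LPS replicate 2 had 33.3, against 72.5. At Lif +27866, CB6F1/J LPS replicate 5 had 456, against 572. At Osm -3925, BALB/cJ control replicate 3 had 211, against 97.5, and at Osm +3656, BALB/cJ control replicate 4 had 50.9, against 26.8. Without replicate 3 the strain ratios at Osm -3925 in controls were -4.69 for C57BL/6J and -3.34 for A/J. Osm +3656 fell below the minimum without replicate 4 and was not tested in controls. At Il6st -36419, C57BL/6J control replicate 4 had 30.6, against 41.6.

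At Socs3 +789, C57BL/6J control replicate 3 had 6.5, against 15.7. At Stat3 +11981, C57BL/6J control replicate 2 had 9.63, against 16.9, and at Stat3 +5545, CB6F1/J control replicate 4 had 25.9, against 4.19. At Il6 -122771, CB6F1/J control replicate 1 had 12.3, against 1.13. The remaining 5 were near 0. At Il6 -92611, BALB/cJ control replicate 1 had 1.32, against 0. At Lif +27333, A/J control replicate 1 had 1.54, against 0. At Lif +69663, A/J control replicate 4 had 3.13, against 0, BALB/cJ control replicate 1 had 1.32, against 0.0921, and C57BL/6J control replicate 1 had 1.16, against 0.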

How the results depend on the processing

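Without a minimum, C57BL/6J against BALB/cJ in controls gave 10 peaks and A/J against BALB/cJ gave 11. With 2 times the minimum, the 3 control comparisons gave 1, 2 and 1 peaks and C57BL/6J against BALB/cJ under LPS gave 2. Fitting only the groups compared gave 3 for A/J against C57BL/6J. The summed variant-spanning tags gave 1 of 6 for LPS in CB6F1/J. Leaving out 1 library gave 12 to 30 peaks for LPS in C57BL/6J, 24 to 35 in BALB/cJ and 47 to 61 in CB6F1/J. It gave 2 to 7 for C57BL/6J against BALB/cJ in controls, 2 to 6 for A/J against BALB/cJ, 2 to 5 for A/J against C57BL/6J, 3 to 5 for C57BL/6J against BALB/cJ under LPS, and 0 for the differences in response and the alleles.

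All tags in place of perfectly mapped tags gave 79 peaks (68 higher, 11 lower) in CB6F1/J and turned the Il6 -199 ratio to 1.22 on the BALB/cJ and 1.21 on the C57BL/6J genome. The cause was not tested. The Lif promoter peak at +55 in CB6F1/J (1.09) was lost in 11 of 18 alternatives.

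Same-numbered libraries had r of -0.10 to 0.39 in the inbred table, against -0.40 to 0.22 for other pairs. Among the controls, replicates 2 and 4 deviated together across strains. For A/J and BALB/cJ, r was 0.39 at replicate 2 and 0.37 at replicate 4, and 0.12 and 0.06 at replicates 1 and 3. The main strain comparisons were fitted without a replicate block. With the replicate block the counts were 5, 5 and 5 in controls, 6 under LPS, 22 for LPS in C57BL/6J, 32 in BALB/cJ, 53 in CB6F1/J and 0 for the strain difference, and without the replicate block for animals the alleles gave 0. Few members carry variant-spanning tags, which limits the allele comparison.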

Other observations

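Several Il6st peaks below the minimum of the strain comparisons differed between strains when no minimum was set. These were chosen after their values were seen. At Il6st -76572 the counts were 13.3, 17.7, 11.7 and 12.0 in C57BL/6J controls and 0, 1.0, 2.7 and 0.5 in BALB/cJ controls, and 11.2, 24.6 and 31.1 in C57BL/6J LPS libraries and 0.9 and 0 in BALB/cJ LPS libraries. The groups did not overlap in either state, and the log2 ratio in controls was 4.10 (SE 0.74, adjusted p = 0.000157, edgeR). At the hybrid peak Il6st -76551 the C57BL/6J allele had 34 and the BALB/cJ allele 13 variant-spanning tags after LPS, and 6 and 1 in controls. Without a minimum this allele ratio was 1.20 (SE 0.74, adjusted p = 0.59, edgeR) after LPS, which misses the threshold. Another hybrid peak, Il6st -80705, went the other way. Its C57BL/6J allele had 17 and its BALB/cJ allele 37 tags after LPS, and 5 and 10 in controls. Neither peak reached the minimum of the allele comparison.

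Il6st -16766 was open in A/J alone among the inbred groups, with 21.6, 16.4, 18.3 and 28.2 in A/J controls against 1.7, 0, 1.3 and 2.7 in C57BL/6J controls and 0, 2.0, 4.0 and 0.8 in BALB/cJ controls. The log2 ratio was 3.72 (SE 0.77, adjusted p = 0.00114) against C57BL/6J and 3.89 (SE 0.75, adjusted p = 0.000804) against BALB/cJ, by edgeR with no minimum.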
